A study of Mus musculus with 4 samples.

Results

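The genes described here are the muscle-type forms of energy metabolism enzymes, together with myoglobin, in fetal brown adipose tissue (BAT). They were taken by name as Ckm, Ckmt2, Mb, Pygm, Eno3, Pgam2, Ampd1, Cox6a2 and Fbp2. All 9 were found among the 22298 genes of the deposited count table, and all 9 passed the filter on low counts, which left 12888 genes for testing. RNA-seq was performed on BAT of E18.5 mouse fetuses (strain C57BL/6 in the labels, C57BL/6J in the methods), in 2 control libraries from dams given sterilized tap water and 2 fructose libraries from dams given 20% (w/v) fructose water from the detection of mating on. The number of fetuses and litters behind each library is not given in the sources used here, so p-values measure only the spread between these libraries, which may be technical.

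Skeletal muscle meets sudden energy demand with forms of common enzymes that most other tissues use little. Creatine kinase keeps ATP topped up from phosphocreatine, with Ckm in the cytosol and Ckmt2 in the mitochondrial intermembrane space. Pygm releases glucose units from glycogen, Pgam2 and Eno3 run late steps of glycolysis, Fbp2 works in the opposite direction, towards glucose and glycogen, and Ampd1 removes AMP at high workload. Cox6a2 is the heart and skeletal muscle form of a subunit of cytochrome c oxidase (complex IV of the respiratory chain), and Mb encodes the oxygen-binding protein myoglobin. Developing muscle and brown fat are related in lineage, and brown adipocytes can express some of these genes themselves.

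The libraries held 18542897 to 23645147 counts on genes. Levels are in CPM, which scales counts to library totals corrected by TMM normalization, and a gene with 0 counts could have had a level of up to 0.122 to 0.166 CPM, taken as 3 counts and covering counting error only. The labels of all libraries give male fetuses, but 4 Y-linked genes (Uty, Kdm5d, Ddx3y and Eif2s3y) gave summed counts of 422 and 390 in control and of 0 in both fructose libraries. Every comparison below rests on those libraries, and whatever follows fetal sex and whatever follows maternal fructose cannot be told apart in them. Mitochondrially encoded genes took 5.89% and 6.49% of the counts in control and 10.8% and 11.2% in fructose. Across tested genes, the log2 fold change rose with transcript length (Spearman's rho 0.50) and fell with GC content (rho -0.53). Fold changes and calls with both trends removed from each library are therefore given beside the results they bear on. The trends were not removed from shares and ratios taken within a library. The 12 brown adipocyte markers summed to 24179 and 26177 CPM in control and 24165 and 22361 CPM in fructose. In edgeR's test, described below, 2 of them were called higher and 3 lower, beside 15.5% and 10.7% of all tested genes. With both trends removed, 2 were called higher and 1 lower, beside 3.65% and 3.13%. The tissue label was met by Ucp1, the uncoupling protein of brown fat, at 11065 ± 1923 CPM in control (SD, n = 2).

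The starts of 7 of the 9 genes were in RefSeq's promoter table for GRCm38.p6, the build of the deposited data, and Ampd1 and Cox6a2 were not. In the 250 bases before these starts, CAGCTG, a form of the E-box that myogenic regulatory factors can bind, was found for 6 of the 7 genes (Ckm, Ckmt2, Fbp2, Mb, Pgam2 and Pygm), and in 4271 of all 32851 promoters of the table. CACCTG, read on both strands, was found for Ckmt2, Fbp2 and Pgam2 and in 17.2% of all promoters. The MEF2 box, read on both strands, was found for Pgam2 alone and in 2.92% of all promoters. The letters TATAAA and AAGGTCA, read on both strands, were in none of the 7 windows, and in 12.4% and 4.08% of all promoters. A match is a description of letters and not of binding. Pgam2 is shown because its window holds 3 of these motifs, Ckmt2 because it had the highest fold change of the set, Mb because it had the highest level, and Fbp2 because it holds the same E-box letters and did not rise. The matches, which do not overlap one another, are in capitals, and each sequence runs 5′ to 3′ on the gene's strand, which is the minus strand for all 4. The windows are chr11:5803797-5804046 for Pgam2, chr13:91876886-91877135 for Ckmt2, chr15:77022788-77023037 for Mb, the start of 3 in the table that GENCODE's principal transcript uses, and chr13:62858401-62858650 for Fbp2.
Pgam2: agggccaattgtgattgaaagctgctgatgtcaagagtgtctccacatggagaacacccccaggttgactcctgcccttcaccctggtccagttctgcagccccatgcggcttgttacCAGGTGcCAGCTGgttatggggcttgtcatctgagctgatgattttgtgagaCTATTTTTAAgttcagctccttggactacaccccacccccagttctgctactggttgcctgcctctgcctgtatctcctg
Ckmt2: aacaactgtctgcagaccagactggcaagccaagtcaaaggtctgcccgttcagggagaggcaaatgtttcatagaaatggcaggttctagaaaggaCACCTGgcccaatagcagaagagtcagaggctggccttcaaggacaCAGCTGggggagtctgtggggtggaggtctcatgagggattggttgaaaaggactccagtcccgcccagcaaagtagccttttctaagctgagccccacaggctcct
Mb: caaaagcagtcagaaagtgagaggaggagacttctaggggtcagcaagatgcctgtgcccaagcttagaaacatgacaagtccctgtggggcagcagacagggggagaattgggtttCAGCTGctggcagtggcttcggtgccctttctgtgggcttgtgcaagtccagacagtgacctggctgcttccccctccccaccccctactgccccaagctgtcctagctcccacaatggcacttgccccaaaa
Fbp2: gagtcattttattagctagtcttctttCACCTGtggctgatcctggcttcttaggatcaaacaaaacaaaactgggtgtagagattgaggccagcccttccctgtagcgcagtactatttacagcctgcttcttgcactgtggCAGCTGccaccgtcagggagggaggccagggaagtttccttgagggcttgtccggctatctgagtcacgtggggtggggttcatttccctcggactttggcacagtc

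Of the 9 muscle-type genes, 8 rose in fructose and Fbp2 did not. The test was edgeR's quasi-likelihood test, two-sided, with Benjamini-Hochberg adjustment over the 12888 tested genes, and a gene was called at an adjusted p-value under 0.05. By this rule 15.5% of all tested genes were called higher and 10.7% lower. In the same 8 genes both fructose libraries lay above both control libraries, as they did in 33.4% of all tested genes. The median log2 fold change of the 9 genes was 0.91, from -0.11 for Fbp2 to 1.54 for Ckmt2, and that of all tested genes was 0.0025. With the thresholds of the study's methods applied to edgeR's test (p under 0.05 without adjustment, fold change above 1.3), the count was again 8, where 17.6% of all tested genes were called higher and 6.18% lower. After removal of both the length and the GC trend, 7 of the 9 were still called higher, beside 3.65% of all tested genes called higher and 3.13% lower, and their median was 1.23. DESeq2 called 7 of the 9 higher, beside 10.8% of the genes to which it gave an adjusted p-value, and of the 8 it left out Ampd1 (adjusted p = 0.053).

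**Figure D1:**
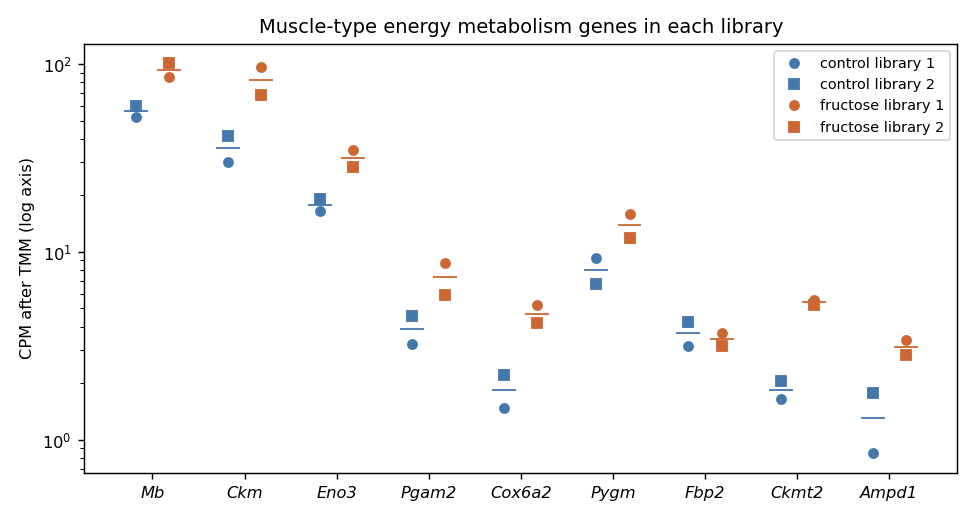
CPM after TMM normalization on a log axis for the 9 muscle-type energy metabolism genes in each of the 4 libraries, with circles for library 1, squares for library 2 and a line at each group mean. The fructose libraries lie above the control libraries for every gene apart from Fbp2, whose groups overlap between 3.17 and 3.71 CPM.

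Both creatine kinases rose. Ckm (ENSMUSG00000030399, chromosome 7, 19404776 to 19422841) was counted 568 and 744 times in control and 2191 and 1678 times in fructose, or 30.0 and 41.3 CPM against 96.9 and 68.5 CPM. Each fructose library was above both control libraries, and fructose library 1 was the highest. The log2 fold change was 1.22 (standard error 0.16, edgeR adjusted p = 0.00066), a fold change of 2.32. Ckmt2 (ENSMUSG00000021622, chromosome 13, 91853387 to 91876885) gave 31 and 37 counts in control against 125 and 128 in fructose, or 1.64 and 2.05 CPM against 5.53 and 5.23 CPM. The libraries of each group lay close together, and its log2 fold change of 1.54 was the highest of the 9 in this fit (standard error 0.25, edgeR adjusted p = 0.0015). With both trends removed, edgeR gave log2 fold changes of 1.32 for Ckm (adjusted p = 0.0010) and 1.72 for Ckmt2 (adjusted p = 0.0023).

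Mb was the most abundant gene of the set per kilobase in every library. It rose by a factor of 1.66. Mb (ENSMUSG00000018893, chromosome 15, 77015487 to 77050670) gave 990 and 1080 counts in control against 1929 and 2469 in fructose, or 52.2 and 59.9 CPM against 85.3 and 101 CPM. Here fructose library 2 was the highest, unlike for Ckm. The log2 fold change was 0.73 (standard error 0.10, edgeR adjusted p = 0.00081) and 1.04 with both trends removed (edgeR adjusted p = 0.00057). The gene spans 5942 bases in common with Apol6 on the opposite strand, which gave 297 and 347 counts in control and 569 and 511 in fructose. How the counting treated strand is not given in the sources used here, so reads of the shared span could have gone to either gene.

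The muscle-type genes of glycogen breakdown and late glycolysis rose by 1.73-fold (Pygm), 1.78-fold (Eno3) and 1.88-fold (Pgam2). Pygm, the muscle glycogen phosphorylase (ENSMUSG00000032648, chromosome 19, 6384399 to 6398459), gave 175 and 121 counts in control against 359 and 290 in fructose, or 9.24 and 6.71 CPM against 15.9 and 11.8 CPM. Its log2 fold change was 0.79 (standard error 0.19, edgeR adjusted p = 0.012). Eno3, the muscle enolase (ENSMUSG00000060600, chromosome 11, 70657202 to 70662513), gave 311 and 345 counts in control against 790 and 694 in fructose, or 16.4 and 19.1 CPM against 34.9 and 28.3 CPM. The spread within each group was small beside the difference, and the log2 fold change was 0.83 (standard error 0.13, edgeR adjusted p = 0.0014). Pgam2, the muscle phosphoglycerate mutase (ENSMUSG00000020475, chromosome 11, 5801640 to 5803733), gave 61 and 82 counts in control against 197 and 145 in fructose, or 3.22 and 4.55 CPM against 8.71 and 5.92 CPM. Fructose library 2 was nearer to control library 2 than to fructose library 1. The log2 fold change of Pgam2 was 0.91 (standard error 0.25, edgeR adjusted p = 0.019), and without fructose library 1 it was 0.61 and not called (edgeR adjusted p = 0.16). Pygm also lost its call without that library (0.57, edgeR adjusted p = 0.068), while Eno3 kept it in every fit (largest adjusted p = 0.0029). After removal of both trends, edgeR gave 0.90 for Pygm (adjusted p = 0.016), 1.07 for Eno3 (adjusted p = 0.00066) and 1.29 for Pgam2 (adjusted p = 0.0097).

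Ampd1 and Cox6a2 had few counts and rose by more than 2-fold. Ampd1, the muscle AMP deaminase (ENSMUSG00000070385, chromosome 3, 103074014 to 103099720), gave 16 and 32 counts in control against 77 and 69 in fructose, or 0.844 and 1.77 CPM against 3.40 and 2.82 CPM. The control libraries differed from each other more than the fructose libraries did. The log2 fold change was 1.25 (standard error 0.35, edgeR adjusted p = 0.022), and edgeR did not call it with both trends removed (1.23, adjusted p = 0.057), without control library 1 (0.80, adjusted p = 0.093) or without fructose library 1 (1.11, adjusted p = 0.089). Cox6a2 (ENSMUSG00000030785, chromosome 7, 128205435 to 128206387) gave 28 and 40 counts in control against 118 and 102 in fructose, or 1.48 and 2.22 CPM against 5.22 and 4.16 CPM. Its log2 fold change was 1.34 (standard error 0.28, edgeR adjusted p = 0.0057) and 1.67 with both trends removed (edgeR adjusted p = 0.0058). Leaving out fructose library 1 lowered the number of the 9 genes called higher from 8 to 5, and leaving out control library 1 lowered it to 7.

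Fbp2, the muscle form of fructose bisphosphatase, stood apart. Fbp2 (ENSMUSG00000021456, chromosome 13, 62836877 to 62858422) gave 60 and 76 counts in control against 84 and 77 in fructose, or 3.17 and 4.21 CPM against 3.71 and 3.14 CPM. The groups overlapped, and the test did not call it (log2 fold change -0.11, 95% interval -0.65 to 0.44, edgeR adjusted p = 0.79). The interval does not reach the 0.73 of Mb, the smallest log2 fold change among the other 8 genes in the same fit. It does overlap the 95% intervals of Pygm (0.37 to 1.21) and Pgam2 (0.37 to 1.45). Whether Fbp2 differed from the other genes was not tested. The sign turned with both trends removed (0.10, edgeR adjusted p = 0.86).

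Per kilobase of transcript, the order of the levels in control was Mb (50.8 CPM per kb), Ckm (12.99), Eno3 (11.4), Pgam2 (4.62), Pygm (2.77), Fbp2 (2.73), Cox6a2 (2.72), Ckmt2 (1.24) and Ampd1 (0.559). The control libraries of Ckm and Eno3 overlapped on this scale, and so did those of Pygm, Fbp2 and Cox6a2. In fructose the order was Mb (84.3 CPM per kb), Ckm (30.2), Eno3 (20.2), Pgam2 (8.71), Cox6a2 (6.90), Pygm (4.82), Ckmt2 (3.62), Fbp2 (2.53) and Ampd1 (1.33). Fbp2 thus moved from a place among Pygm and Cox6a2 to one below both, and the fructose libraries overlapped only between the neighbours Pgam2 and Cox6a2.

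The isoforms used by other tissues gave a within-sample reference, because a family's muscle-type share does not depend on scaling between libraries. The share can still carry the length and GC content trends, which act on each gene and were not removed from it. Of the 11 partner isoforms, 9 were tested, with a median log2 fold change of -0.20. Pygl, the liver glycogen phosphorylase (0.33, edgeR adjusted p = 0.029), and Ampd3, the erythrocyte AMP deaminase (0.59, edgeR adjusted p = 0.0497, not called by DESeq2), rose, and Cox6a1, the common form of the complex IV subunit, fell (-0.49, edgeR adjusted p = 0.0027). With both trends removed, edgeR called 0 of the 9 partners, with 2 at an unadjusted p-value under 0.05, and Cox6a1 was at -0.038. No share of all tested genes was taken at that unadjusted threshold alone. Such counts, here and for the lists below, therefore have no rate to be read against. Ckb (-0.31), Pygb (-0.20), Eno1 (-0.32), Eno2 (-0.19), Pgam1 (-0.092) and Ampd2 (-0.24) were not called by edgeR (smallest adjusted p = 0.059), though DESeq2 called Eno1 lower (adjusted p = 0.019). The remaining partners did not pass the filter, with 1 count of Ckmt1 in each control library against 6 and 2 in fructose, and 11 and 6 counts of Fbp1 in control against 4 and 7 in fructose. Ampd3 overlaps Rnf141 on the opposite strand.

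**Figure D2:**
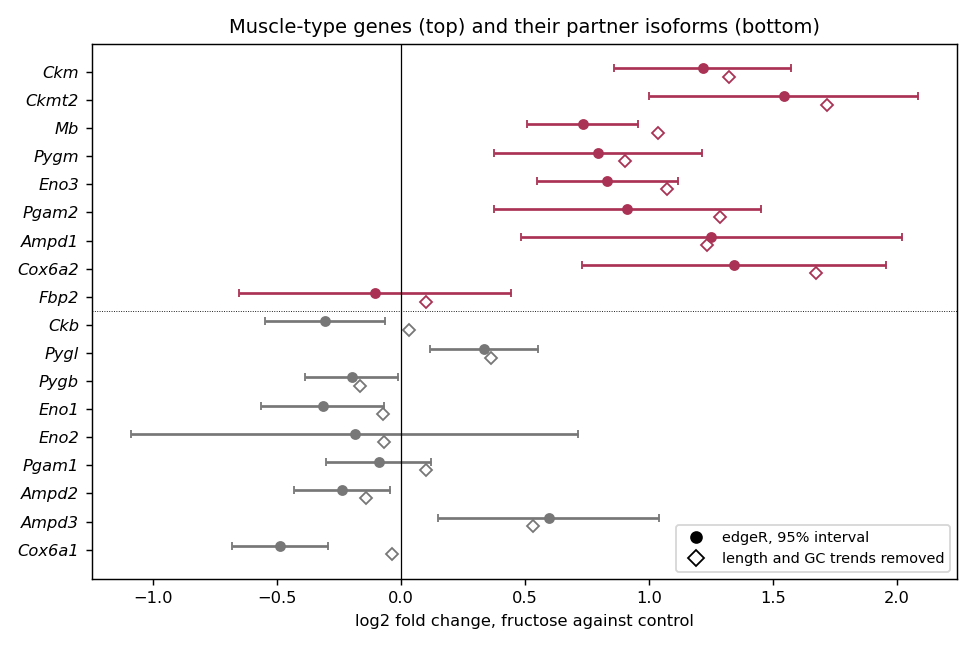
Log2 fold change of fructose against control for the 9 muscle-type genes (red) and the 9 tested partner isoforms (grey), with filled points and 95% intervals from edgeR and open diamonds for the same fit with length and GC content trends removed. The intervals of 8 muscle-type genes lie wholly above 0, and the partners lie between -0.49 and 0.59.

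In 6 of the 8 enzyme families the muscle-type share was higher in both fructose libraries than in both control libraries. The muscle-type genes of these 6 families are among the 8 whose levels lay above control, so this count is not separate from that one. For levels, 33.4% of all tested genes lay above in this way, and no such rate was taken for shares. Shares are of counts per kilobase, and intervals in brackets are 95% Wilson intervals that cover counting error only. Ckm made up 35.7% [33.1 to 38.4] and 41.3% [38.7 to 44.0] of the cytosolic creatine kinase transcripts in control, and 66.6% [64.5 to 68.5] and 61.8% [59.5 to 64.0] in fructose. Per kilobase, Ckm was thus below Ckb in both control libraries and above it in both fructose libraries, while in counts not divided by length it was above Ckb in all 4 (50.9% and 56.7% in control, 78.8% and 75.1% in fructose). The share of Ampd1 in its family was 1.16% and 2.09% in control and 4.75% and 4.004% in fructose. That of Pygm was 3.54% and 2.57% in control and 5.99% and 4.52% in fructose. In the remaining rising families the muscle form stayed a small part of the total. Eno3 was at 0.437% and 0.490% of the enolases in control and 1.02% and 1.03% in fructose, Pgam2 at 0.589% and 0.761% against 1.502% and 1.18% of the phosphoglycerate mutases, and Cox6a2 at 0.0502% and 0.0728% against 0.239% and 0.199% of its subunit pair. Ckmt2 and Fbp2 already held most of their families, with 95.8% to 98.6% for Ckmt2 and 85.6% to 95.8% for Fbp2 over the 4 libraries, and their groups overlapped. With 2 libraries against 2, the exact permutation test cannot go below p = 0.333, which is the value of each of the 6 families.

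**Figure D3:**
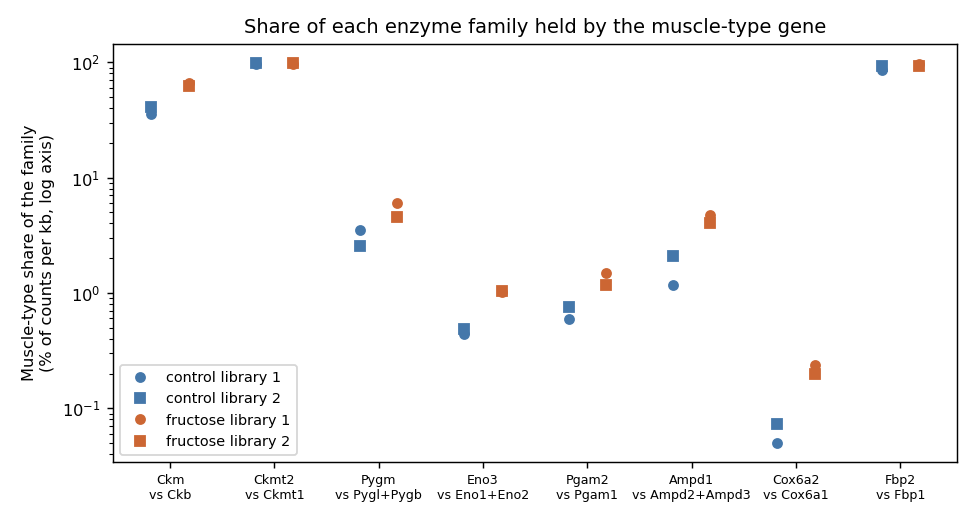
Percent of each enzyme family's counts per kilobase held by the muscle-type gene, on a log axis, in the 4 libraries. Ckm is at most 41.3% in control and at least 61.8% in fructose, Cox6a2 is at most 0.239%, and Ckmt2 and Fbp2 stay near the top in both groups.

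The contractile genes of skeletal muscle rose as well. All 23 listed contractile markers were called higher by edgeR, beside 15.5% of all tested genes. Their log2 fold changes ran from 0.93 to 3.70 with a median of 1.43. This list, too, was chosen with earlier results of these data known. Their summed level was 264 and 365 CPM in control and 876 and 653 CPM in fructose. Among the most abundant per kilobase, Mylpf, a fast myosin light chain, rose by 0.98 (edgeR adjusted p = 0.00066), Acta1, skeletal muscle actin, by 1.15 (edgeR adjusted p = 0.0013) and Myl1, an essential myosin light chain, by 1.34 (edgeR adjusted p = 0.00015). With both trends removed, 19 of the 23 were called higher, beside 3.65% of all tested genes. In bulk tissue, more muscle cells in a sample and more muscle RNA per cell cannot be told apart, and the part of the contractile markers in the changes above was not tested. Of the 8 cardiomyocyte markers, which bear on Cox6a2, Ckm and Mb since the heart uses them too, 5 (Nppa, Nppb, Myl7, Tnni3 and Mybpc3) had at most 2 counts in any library, and Nppb had 0 in all 4. Ryr2, the cardiac ryanodine receptor, had 1 and 7 counts in control and 11 and 6 in fructose. Myh6, the cardiac myosin, was at 0 counts throughout control and at 2 and 5 counts in fructose. Tnnt2, which fetal skeletal muscle also expresses, was the 1 marker of the 8 that was tested, and edgeR called it higher (1.65, adjusted p = 0.034) where DESeq2 did not. The 6 smooth muscle markers summed to 169 and 188 CPM in control and 173 and 144 CPM in fructose, and the 6 liver markers had at most 2 counts in any library. The 7 erythroid markers summed to 19204 and 15294 CPM in control and 11766 and 12141 CPM in fructose. By edgeR 5 of them were called lower, beside 10.7% of all tested genes. With both trends removed, 0 were called lower, beside 3.13% of all tested genes, with 2 at an unadjusted p-value under 0.05. The part of red cell RNA in the changes above was not tested.

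Set against the summed contractile level within each library, the 9 genes differed in where they lay. The length and GC content trends were not removed from these ratios. The sum is weighted towards its most abundant genes. Acta1 gave 94.8 and 133 CPM of it in control and 305 and 201 CPM in fructose. Mylpf gave 63.3 and 81.8 CPM in control and 161 and 125 CPM in fructose. Ckm was at 11.4% and 11.3% of that sum in control and 11.1% and 10.5% in fructose, a ratio of 0.951. Cox6a2 (ratio 1.06) and Ampd1 (ratio 1.02) overlapped between the groups, and Ckmt2 was higher relative to the sum (ratio 1.21). Mb (ratio 0.696), Pygm (0.679), Eno3 (0.727) and Pgam2 (0.771) were lower relative to the sum in fructose. Mb was at 19.8% and 16.4% of the sum in control and at 9.74% and 15.4% in fructose, so that fructose library 2 lay near control library 2. For Pygm the difference rested on control library 1, at 3.50% of the sum, since control library 2 was at 1.84% beside 1.81% in each fructose library. Fbp2 was at 1.20% and 1.15% of the sum in control and 0.424% and 0.481% in fructose, a ratio of 0.385. The exact permutation test gave p = 0.333, the smallest possible, for Ckm, Ckmt2, Mb, Pygm, Eno3, Pgam2 and Fbp2.

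**Figure D4:**
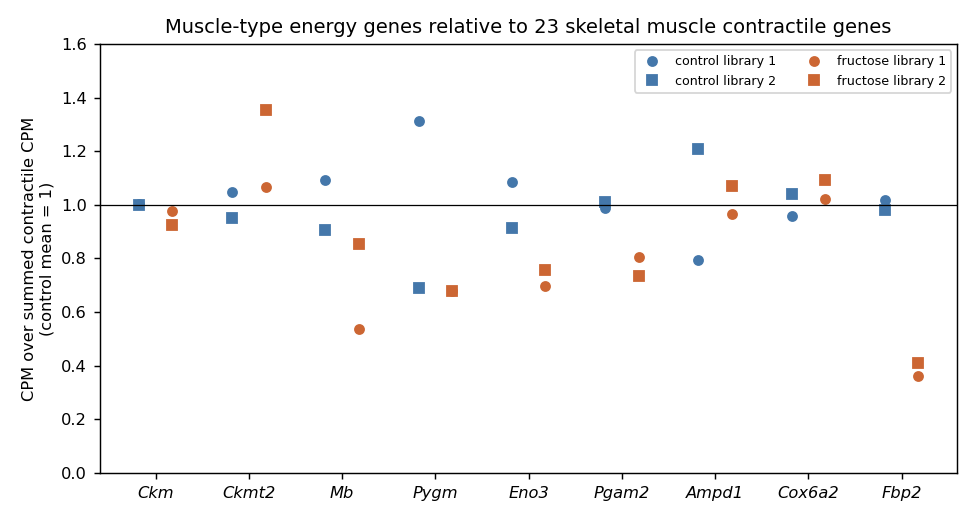
CPM of each gene divided by the summed CPM of 23 skeletal muscle contractile genes in the same library, scaled so that the control mean is 1. In fructose, Ckm, Ampd1 and Cox6a2 average 0.951 to 1.06, and Ckmt2 averages 1.21. Mb, Pygm, Eno3 and Pgam2 average 0.679 to 0.771, and Fbp2 averages 0.385.

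Of 20 tested genes from a list of 23 other genes with high use in muscle energy metabolism, 1 was called higher and 5 lower by edgeR. Of all tested genes, 15.5% were called higher and 10.7% lower. The list's median log2 fold change was -0.0090. It holds genes far above the 9 in level, with control means of 7175 CPM for Aldoa, 3263 for Ldha and 728 for Cox7a1. The highest control mean among the 9 genes was 56.1 CPM, for Mb. Which cells gave these counts was not tested. The genes of the list that failed the filter were Ppp1r3a (0 and 1 counts in control, 3 and 9 in fructose), Prkag3 (1 and 2, 7 and 3) and Mss51 (0 and 3, 2 and 0). Aldoa, the aldolase of muscle and many other tissues (-0.33, edgeR adjusted p = 0.036), and Cox7a1, a complex IV subunit of muscle and brown fat (-0.36, edgeR adjusted p = 0.012), were lower, and Ldha, lactate dehydrogenase, was not called (-0.16, edgeR adjusted p = 0.27). The gene called higher was Prkaa2, a catalytic subunit of AMP-activated kinase (1.09, edgeR adjusted p = 0.0010), named here after its values were seen and not called with both trends removed (0.30, edgeR adjusted p = 0.32). That fit called 1 gene of this list higher, Fabp3, the heart and muscle fatty acid-binding protein (0.79, edgeR adjusted p = 0.029), also named after its values were seen. It called 0 lower, with Aldoa at -0.027 (edgeR adjusted p = 0.91) and Cox7a1 at 0.069 (edgeR adjusted p = 0.67).
Of the 16 glycolysis genes, edgeR called 4 lower and 0 higher, with 7 at an unadjusted p-value under 0.05, and DESeq2 called 5 lower and 0 higher. The edgeR calls of this and the following lists stand beside 15.5% of all tested genes called higher and 10.7% lower. With both trends removed, those shares were 3.65% and 3.13%. No share of all genes was taken for lower calls by DESeq2 or for an unadjusted p-value under 0.05 alone. After removal of both trends, edgeR called 0 of the 16, with 4 at an unadjusted p-value under 0.05, and their median moved from -0.14 to 0.012. Gapdh was at -0.23 (edgeR adjusted p = 0.16). Of the 10 glycogen breakdown genes, 3 were called higher, among them Pygl and Phkb, a phosphorylase kinase subunit (0.84, edgeR adjusted p = 0.0034) named after its values were seen. With both trends removed, Phkb was at 0.38, and edgeR called 0 of the 10, with 2 at an unadjusted p-value under 0.05. Pgm1, phosphoglucomutase, was not called (-0.0996, edgeR adjusted p = 0.42). Of the 7 genes of the purine nucleotide cycle and adenylate kinases, Ampd3 was called higher and Adssl1, the muscle adenylosuccinate synthase, lower (-0.39, edgeR adjusted p = 0.0053). Without both trends, edgeR called 0 of the 7, with 4 at an unadjusted p-value under 0.05, and Adssl1 was at -0.15 (edgeR adjusted p = 0.30). Among the creatine genes, Gatm, the first enzyme of creatine synthesis, was called higher (1.03, edgeR adjusted p = 0.028), but neither by DESeq2 (adjusted p = 0.088) nor with both trends removed (edgeR adjusted p = 0.16). Gamt, the second enzyme (-0.16, edgeR adjusted p = 0.42), and Slc6a8, the creatine transporter (-0.11, edgeR adjusted p = 0.63), were not called.
The 13 nuclear complex IV subunits on the list, which leaves out Cox6a2, were each lower in both fructose libraries than in both control libraries, as were 31.6% of all tested genes. By edgeR, 7 of them were called lower, beside 10.7% of all tested genes. Among the 7 were Cox4i1 (-0.46, edgeR adjusted p = 0.0041) and Cox8a (-0.35, edgeR adjusted p = 0.012). With both trends removed, their median moved from -0.35 to -0.013, and edgeR called 0 of the 13, with 1 at an unadjusted p-value under 0.05, whereas Cox6a2 kept its call.

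**Figure D5:**
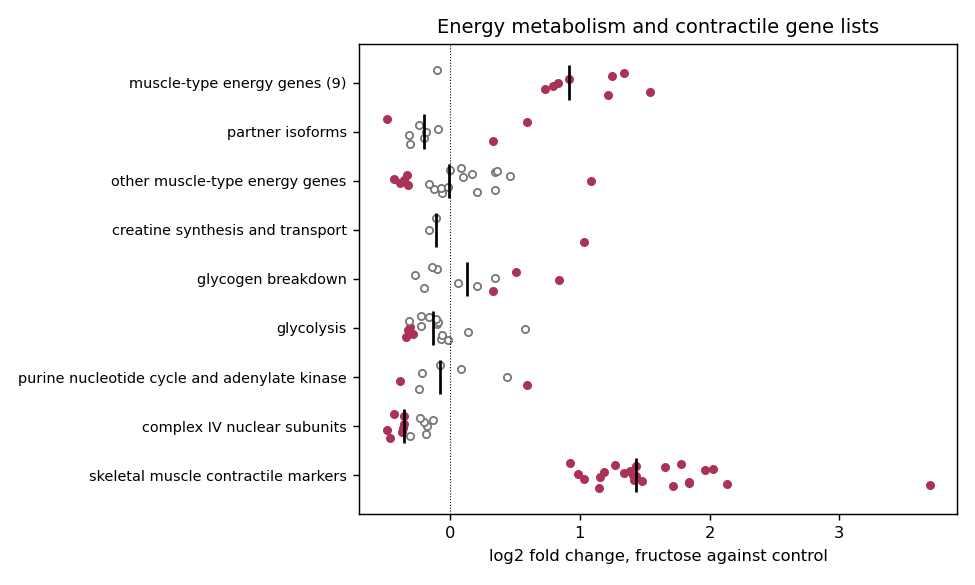
Log2 fold change of fructose against control for the tested genes of each list, with filled red points for genes called by edgeR at an adjusted p-value under 0.05, open points for genes not called and a bar at the list's median. The medians lie at 0.91 for the 9 muscle-type energy genes, 1.43 for the contractile markers and between -0.35 and 0.13 for the partner isoforms and the 6 other energy metabolism lists plotted.

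Profiles over the 4 libraries were compared by the root mean square difference of log2 CPM centred on each gene's mean. The log2 CPM held a prior count of 2, which lowers the differences of genes with few counts. Nearest to Mb were Pign (0.0072), Igf2bp3 (0.025) and Mier3 (0.026). Nearest to Ckmt2 were Dtna (0.045), Nphp4 (0.051) and Stac3 (0.052), a component of skeletal muscle excitation-contraction coupling. Their log2 fold changes in edgeR's fit were 1.75, 2.09 and 1.77, beside 1.54 for Ckmt2. Stac3 was not called by edgeR (adjusted p = 0.05004), and neither Dtna (adjusted p = 0.070) nor Igf2bp3 (adjusted p = 0.11) was called by DESeq2. Nphp4 was not called by edgeR when every gene with a count was tested (adjusted p = 0.071). The distances are descriptions over 4 libraries that share 1 contrast.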

How the data were processed

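Per the submitters' processing notes and the study's methods, the authors filtered reads with fastp, mapped them to mm10 with Bowtie2 2.0.0.5 and TopHat2 2.0.0, assembled transcripts with StringTie 2.2.0, merged them with Cuffmerge and deposited raw read counts per gene. The counting tool and its treatment of strand and multiply mapping reads are not given in the sources used here, so values of paralogs and overlapping genes are uncertain. The 4 single-library tables held the same counts as the joint table. Symbols, positions and transcript lengths came from GENCODE M21 (GRCm38), with 43 identifiers unmatched. Lengths are those of the longest transcript that GENCODE tags as principal, or of the longest transcript where none is tagged. Values per kilobase depend on that choice. The study used DESeq2, and here edgeR 4.0.16 in R 4.3.3 (TMM, filterByExpr, quasi-likelihood test, no covariate) was the main test and DESeq2 1.42.0 an alternative. Standard errors and intervals were derived from the F statistic. Trends were removed as offsets from lowess fits (span 0.3). The fits were tested on simulated data. Replicate numbers were not taken as pairs in the main test. Promoters came from RefSeq (GRCm38.p6). Named were the 9 genes, their partners, genes of high level per kilobase in each list and those most alike in profile, and some genes are not reported here. The genes and lists were chosen with earlier results of these data known. Alternatives covered normalization, filters, trends, a replicate block and left-out libraries. The fits without a library keep 1 library in a group, which is assumed to vary like the other group.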

Additional observations from a re-analysis of the deposited data

How the results depend on the processing

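The count of the 9 genes called higher stayed at 7 or 8 under every alternative that kept all libraries, and ran from 5 to 8 with 1 library left out. Their median log2 fold change was 0.80 to 1.18 with 1 library left out, and the median ratio to the contractile sum, -0.37 on the log2 scale, was -0.45 without Acta1 in the sum and -0.36 to -0.23 with 1 library left out. The number of families with a higher muscle-type share was 6 or 7 throughout. Over all tested genes, 2001 were called higher and 1379 lower. These counts were 1004 higher with the GC content trend removed, 1175 higher with the length trend removed, 471 and 404 with both removed, 508 and 401 with both removed and the replicate block, and 859 lower when scaled by library size only. With 1 library left out they ran from 1207 to 2225 higher and from 485 to 1700 lower. The cause of these moves was not tested.

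With the replicate block alone, 8 of the 9 genes were called higher at a median of 0.90, and 2117 and 1441 genes were called over all. Over all tested genes, libraries with the same number did not deviate together (correlation of deviations -0.027). Pairing was not tested in any other way, and counting noise in genes with few counts could hide it.

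The signs of the following log2 fold changes turned, and none of the genes was called with the turned sign. With the GC content trend removed, Gamt was at 0.041. With the length trend removed, Fbp2 was at 0.084, Pgam1 at 0.044 and Gamt at 0.083. With both removed, Fbp2 was at 0.10, Ckb at 0.032, Pgam1 at 0.10, Cox7a1 at 0.069, Gamt at 0.24, Pgm1 at 0.022, Gapdh at 0.071 and Cox8a at 0.099. With both removed and the block, these were 0.11, 0.032, 0.099, 0.070, 0.23, 0.020, 0.066 and 0.10. With 1 library left out, Fbp2 ran from -0.30 to 0.11, Slc6a8 from -0.29 to 0.080 and Pgam1 from -0.19 to 0.010.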
